A study of Mus musculus with 16 samples.

Results

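The 10 genes described here form the liver X receptor (LXR) arm of sterol handling: the receptors Nr1h2 and Nr1h3, their partner Rxra, the sterol and lipid transporters Abca1, Abcg1, Abca7 and Abcg4, and the further target genes Mylip, Smpdl3a and Arl4c. They were taken by symbol from a table of raw counts with 54532 entries, all 10 were found once, and all 10 passed the filter on low counts that left 17736 genes for testing. Mouse brain RNA was sequenced in 16 libraries, 4 for each combination of Ch25h genotype, intact (Ch25h+/+) or deleted on both alleles (Ch25h-/-), and tau status, written Tau- or Tau+ as in the labels. All samples came from females aged 9 months. The sample labels give the tissue as frontal cortex and the text of the series gives hippocampus, and neither names the tau transgene or its promoter. Nothing in the labels says that the 4 libraries of a group came from separate animals, so the p-values below measure the spread between these libraries, which may be technical.

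LXRs are nuclear receptors that sit on DNA as a dimer with a retinoid X receptor and switch on their targets when they bind an oxidized sterol. Ch25h encodes cholesterol 25-hydroxylase, which makes 25-hydroxycholesterol, an oxysterol that can bind LXRs and also holds back the processing of SREBP, the transcription factor of sterol synthesis genes. In the brain, where cholesterol is made locally, glia use ABC transporters such as Abca1 and Abcg1 to load cholesterol and phospholipid onto particles built around apolipoprotein E. The comparisons below ask how the transcripts of this pathway differed when the enzyme was missing, when tau was present, and whether the tau difference depended on Ch25h.

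LXR dimers bind direct repeats of the letters AGGTCA spaced by 4 bases, so the windows from 250 bases before to 50 bases after each transcription start in RefSeq (GRCm38.p6) were searched on both strands. The strict repeat AGGTCANNNNAGGTCA was in 5 of 32851 windows (0.0152%) and in none of the 7 members with an entry (Nr1h2, Nr1h3, Rxra, Abca1, Abca7, Mylip, Arl4c). Abcg1, Abcg4 and Smpdl3a had no entry. A looser form, GGTNANNNNNGGTNA, chosen after the sequences were seen, was in 236 windows (0.718%). Among the members it matched Abca1, and among the 36 related genes with an entry it matched Srebf1 and Fasn, both lipid synthesis genes that LXRs are known to switch on. The matches are shown because they are close to one another in letters, with the matched bases in capitals, each printed 5′ to 3′ along the gene's own strand:
Abca1: acagcgttTGACCGGTAGTAACCccggcgc
Srebf1: gacgacagTGACCGCCAGTAACCccagcgc
Fasn: ggccacgaTGACCGGTAGTAACCccgcctg

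All of them read as the repeat on the strand opposite to the gene. The Abca1 match lay at chr4:53159948-53159962, 67 to 53 bases before the start. The Srebf1 match lay at chr11:60210639-60210653, 182 to 168 bases before the start, and the Fasn match at chr11:120824758-120824772, 225 to 211 bases before it. The 15 matched bases of Abca1 and Fasn were the same letters. The whole 300-base window of Abca1 on the gene's strand, at chr4:53159846-53160145 with the match in capitals, shows how near it lies to the start:
Abca1 window: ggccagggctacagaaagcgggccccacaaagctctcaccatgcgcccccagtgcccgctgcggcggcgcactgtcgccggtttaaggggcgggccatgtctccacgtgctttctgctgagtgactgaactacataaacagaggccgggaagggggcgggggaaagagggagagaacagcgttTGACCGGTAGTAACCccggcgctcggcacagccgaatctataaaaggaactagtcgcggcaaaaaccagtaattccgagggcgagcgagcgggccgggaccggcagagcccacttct

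These matches describe letters and are not measured binding sites.

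Depth was 15530352 to 25602500 counts per library. Ch25h itself gave 5 to 10 counts per library of Ch25h+/+ Tau- and 11 to 30 per library of Ch25h+/+ Tau+, and none of the 8 libraries without the gene had any (0 counts). Prnp, whose promoter drives some tau transgenes, was at 707 to 838 CPM (counts scaled to library size) in Tau- and 1413 to 1933 CPM in Tau+. Of the 8 libraries without Ch25h, 7 are called rRNA-rich, because 1 ribosomal RNA entry took 2289 to 5684 CPM there (on total counts). It took 111 to 475 CPM in the remaining 9, among them Ch25h-/- Tau+ replicate 1. No Ch25h+/+ library was rRNA-rich, so for the most part Ch25h loss and the library class cannot be told apart. The 7 cortex markers summed to 721 to 962 CPM and the 7 hippocampus markers to 120 to 271 CPM. Choroid plexus markers ranged from 15.2 to 2754 CPM over the libraries.

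The 10 genes differed widely in level per length of transcript, in CPM per kilobase of exon over all 16 libraries. Nr1h2 was highest (21.8 ± 3.23, SD, n = 16), followed by Abcg4 (15.6 ± 0.980) and Arl4c (15.2 ± 1.18), then Abcg1 (10.6 ± 1.06) and Smpdl3a (10.6). Rxra (8.40), Abca7 (6.21), Mylip (4.85) and Abca1 (3.53) came next, and Nr1h3 was lowest (1.33), with 42 to 86 counts per library. Abcg4 and Arl4c did not differ beyond their spread, with Abcg4 the higher in 10 of 16 libraries, and the same held for Abcg1 and Smpdl3a. In the other neighbouring pairs the same gene was the higher in at least 13 of 16 libraries. In these samples the β form of the receptor, Nr1h2, thus had more transcript per length than the α form, Nr1h3, in every library.

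**Figure D1:**
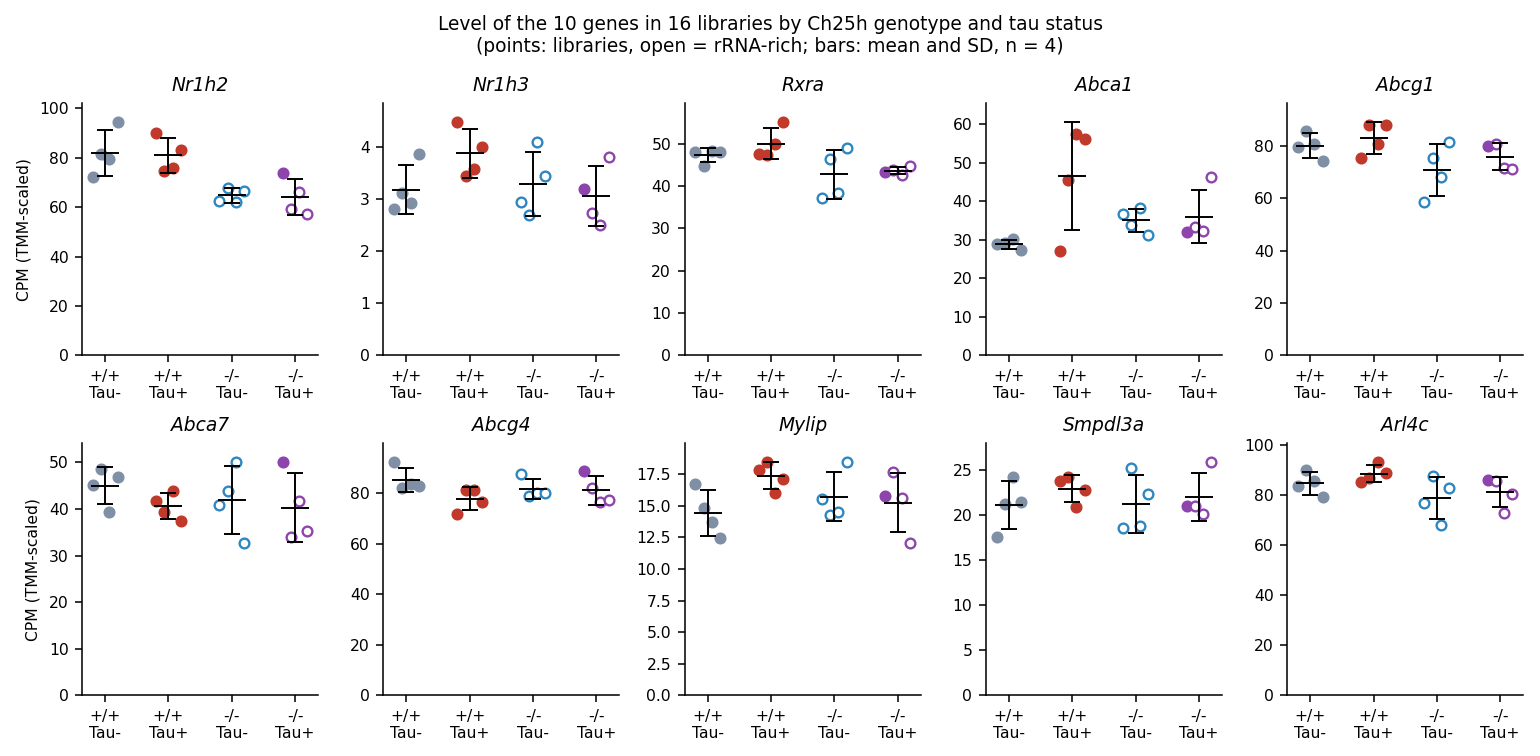
Level of each of the 10 genes in CPM (vertical axis, from 0, scaled by TMM) in the 4 groups; points are libraries, open where rRNA-rich, and bars are the mean and SD of 4. The Nr1h2 panel shows lower points in both Ch25h-/- groups, and the Abca1 panel shows 3 of 4 Ch25h+/+ Tau+ libraries between 45.5 and 57.6 CPM with the other at 27.1.

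With edgeR's quasi-likelihood test and Benjamini-Hochberg adjustment over all 17736 genes, Nr1h2 was the only member that passed in any comparison. It fell with Ch25h loss averaged over both tau states. In that comparison 1 of 10 members passed, where 20.3% of all genes did, and the median log2 difference of the members was -0.08 against 0.00 for all genes. All 10 estimates were below 0 (9 with limma-voom, 7 with a covariate for library class and 6 with the GC-corrected offsets described below), 3 of them at an unadjusted p under 0.05 (Nr1h2, Rxra and Abcg1; 35.1% of all genes). DESeq2 called 2 members there, Nr1h2 and Rxra (23.8% of all genes), and limma-voom called these and Abcg1 (25.7%).

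The tau difference in Ch25h+/+ had 0 of 10 members past the threshold, beside 1.56% of all genes. At an unadjusted p under 0.05 there were 2, Abca1 and Mylip, beside 9.38% of all genes, and DESeq2 and limma-voom each called 1, Abca1 (2.39% and 2.81% of all genes). The members' median log2 difference was 0.07 and their range -0.15 to 0.69. Abcg4 alone had no overlap between its 4 and 4 libraries, a pattern seen in 5.86% of all genes.

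In Ch25h-/-, the tau difference likewise had 0 of 10 past the threshold (0.0395% of all genes), 0 at an unadjusted p under 0.05 (3.68% of all genes), and 0 with DESeq2 (0.0789%) or limma-voom (0.0338%). The members' log2 differences there ran from -0.11 to 0.10. No member separated the 2 groups (2.14% of all genes did).

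Ch25h loss in Tau+ gave 0 of 10 (3.55% of all genes), with 3 at an unadjusted p under 0.05 (Nr1h2, Rxra and Abca1; 23.9% of all genes). DESeq2 called 1, Nr1h2 (8.42% of all genes), and limma-voom called 2, Nr1h2 and Abca1 (10.6%). The median over members was -0.16, and -0.09 with the GC-corrected offsets and -0.13 with the covariate for library class. Nr1h2 and Rxra had no overlap between the groups (10.2% of all genes). In Tau-, the same loss gave 0 of 10 (1.03%), with 1 at an unadjusted p under 0.05 (20.9% of all genes), Nr1h2, which DESeq2 and limma-voom both called (6.34% and 7.83% of all genes). The median there was -0.08, and 0.07 with the GC-corrected offsets and 0.04 with the covariate for library class. Nr1h2 and Abca1 had no overlap (16.2% of all genes).

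The interaction, which asks whether the tau difference changed with Ch25h loss, gave 0 of 10 (0.0338% of all genes) and 1 at an unadjusted p under 0.05, Abca1 (4.13% of all genes). DESeq2 and limma-voom called 0 (0.31% and 0.0338% of all genes). The mean tau difference over both genotypes gave 0 of 10 (0.857% of all genes), 1 at an unadjusted p under 0.05, again Abca1 (9.85% of all genes), 0 with DESeq2 (1.65%) and 1, Abca1, with limma-voom (1.45% of all genes). The comparisons share libraries, so their counts are not separate evidence.

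The number of genes called by edgeR over all genes moved when 1 library was left out. For Ch25h loss in Tau- it was 182 in all libraries, with a range of 3 (Ch25h+/+ Tau- replicate 1 left out) to 1306. The 1306 came without Ch25h+/+ Tau+ replicate 1, which is not in that comparison. Leaving out Ch25h+/+ Tau- replicate 2 or Ch25h-/- Tau- replicate 3 gave 5, so the low end was not particular to 1 library. For the loss in Tau+ the number of genes called was 629, with a range of 108 (without Ch25h+/+ Tau+ replicate 4) to 1691 (without Ch25h-/- Tau+ replicate 1). For tau in Ch25h+/+ it was 277, with a range of 160 (without Ch25h+/+ Tau+ replicate 4) to 299, and for the mean tau difference 152, with a range of 107 to 233 (without Ch25h-/- Tau- replicate 1). The mean effect of Ch25h loss had 3603, with a range of 2436 to 4226, tau in Ch25h-/- had 7 (6 to 13) and the interaction 6 (0 to 22).

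**Figure D2:**
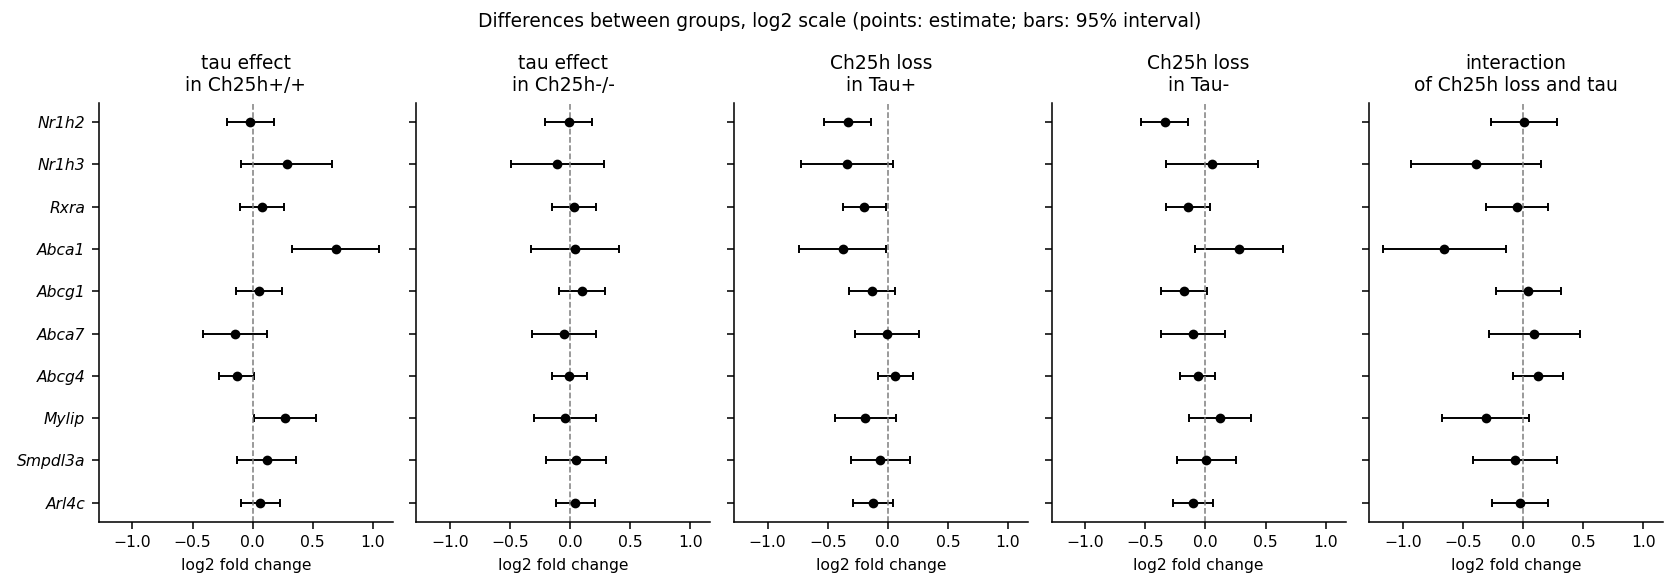
Log2 fold change of each gene (horizontal axis; point) with its 95% interval (bar) in 5 comparisons, from edgeR's fit of all 16 libraries; the dashed line marks 0. The Abca1 interval lies above 0 for tau in Ch25h+/+ (0.33 to 1.06), and the Nr1h2 intervals lie below 0 for Ch25h loss in both tau states.

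Nr1h2 encodes LXRβ, the broadly expressed form of the receptor (chromosome 7, 44549616 to 44553951, minus strand, GRCm38). Its level was 72.3, 81.4, 79.7 and 94.7 CPM in Ch25h+/+ Tau-, and 90.0, 74.8, 75.9 and 83.3 CPM in Ch25h+/+ Tau+. In the absence of Ch25h it was 62.4, 68.0, 62.2 and 66.5 CPM in Tau-, and 73.8, 59.4, 66.0 and 57.4 CPM in Tau+. Within each tau state every Ch25h-/- library was below every Ch25h+/+ library, and within each genotype the Tau- and Tau+ libraries overlapped.

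Nr1h2 fell by 0.34 on the log2 scale with Ch25h loss averaged over both tau states (SE 0.066, 0.792-fold, adjusted p 0.00383, edgeR's quasi-likelihood test with Benjamini-Hochberg adjustment). In Tau+ the difference was -0.33 (SE 0.093, adjusted p 0.0523) and in Tau- it was -0.34 (SE 0.093, adjusted p 0.0687), so neither passed alone. Leaving out single libraries kept the mean difference past the threshold in 16 of 16 fits. The call in Tau+ was gained without any 1 of 4 libraries: Ch25h+/+ Tau- replicate 4 (-0.33, adjusted p 0.0454), Ch25h+/+ Tau+ replicate 2 (-0.39, adjusted p 0.0331) or 3 (-0.36, adjusted p 0.0493), and Ch25h-/- Tau+ replicate 1 (-0.43, adjusted p 0.0150). In Tau- it was gained without Ch25h+/+ Tau+ replicate 1 (-0.33, adjusted p 0.0347) or Ch25h-/- Tau+ replicate 1 (-0.34, adjusted p 0.0473).

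The fall of Nr1h2 ran along with the library class and with base composition. The highest Ch25h-/- value, 73.8 CPM, was in the 1 Ch25h-/- library that was not rRNA-rich, and it was within the range of Ch25h+/+ Tau-. With a covariate for the class, which leaves that 1 library to separate class from genotype, the mean difference was -0.10 (SE 0.14, before 0.066). A call for Ch25h loss that is lost with this covariate, here and below, is therefore no result about the gene. At 60.9% GC, Nr1h2 was the most GC-rich of the 10, and after GC-corrected offsets, fitted per library so that GC-rich and GC-poor genes centre alike, the mean difference was -0.10 (adjusted p 0.230).

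Nr1h3 encodes LXRα, which responds to the same ligands and in the brain is known from glia (chromosome 2, 91184061 to 91202834, minus strand). It was measured at 2.82, 3.11, 2.93 and 3.88 CPM in Ch25h+/+ Tau-, and at 4.49, 3.45, 3.58 and 4.01 CPM in Ch25h+/+ Tau+. The Ch25h-/- libraries gave 2.95, 2.703, 4.09 and 3.45 CPM in Tau- and 3.20, 2.73, 2.50 and 3.81 CPM in Tau+. The groups overlapped in every comparison. Its difference with tau in Ch25h+/+ was 0.28 (95% interval -0.09 to 0.66, adjusted p 0.729, edgeR), and with Ch25h loss in Tau+ it was -0.34 (interval -0.72 to 0.04, adjusted p 0.265). That interval is wide and holds the -0.33 estimated for Nr1h2 in the same comparison. With the GC-corrected offsets the differences there were -0.19 for Nr1h3 and -0.11 for Nr1h2, and with the covariate for library class -0.27 and -0.13. A short transcript on the same strand, Gm13783, overlaps the gene and had at most 7 counts in a library.

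Rxra encodes the retinoid X receptor α, the dimer partner of LXRs and of several other nuclear receptors (chromosome 2, 27676440 to 27762957, plus strand). It had 48.0, 44.8, 48.2 and 48.0 CPM in Ch25h+/+ Tau-, and 47.5, 47.2, 49.8 and 55.2 CPM in Ch25h+/+ Tau+. Without Ch25h it had 37.2, 46.2, 38.3 and 49.0 CPM in Tau-, and 43.4, 43.7, 42.7 and 44.7 CPM in Tau+. The 4 libraries of Ch25h-/- Tau+ were all below those of Ch25h+/+ Tau+, whereas the Tau- groups overlapped.

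The Rxra difference with Ch25h loss was -0.20 in Tau+ (SE 0.086, adjusted p 0.179), -0.15 in Tau- (adjusted p 0.343) and -0.17 on average (SE 0.061, adjusted p 0.0551, edgeR). The average passed without any 1 of 4 libraries: Ch25h+/+ Tau+ replicate 1 (adjusted p 0.0490) or 2 (adjusted p 0.0422), and Ch25h-/- Tau- replicate 2 (adjusted p 0.0421) or 4 (-0.22, adjusted p 0.0205). With the GC-corrected offsets the average was 0.0071, on the other side of 0 (adjusted p 0.965), and the difference in Tau+ was -0.025 (adjusted p 0.915). With the covariate for library class the average was -0.18 (adjusted p 0.9995) and the difference in Tau+ -0.20 (adjusted p 0.976).

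Abca1 encodes the transporter that moves cholesterol and phospholipid onto lipid-poor apolipoproteins, the first step in forming lipoprotein particles (chromosome 4, 53030787 to 53159895, minus strand). Its level in Ch25h+/+ Tau- was 29.0, 29.1, 30.1 and 27.3 CPM, the narrowest group, and in Ch25h+/+ Tau+ it was 27.1, 45.5, 57.6 and 56.2 CPM. In Ch25h-/- it was 36.8, 33.7, 38.2 and 31.4 CPM in Tau-, and 32.1, 33.3, 32.3 and 46.3 CPM in Tau+. Of the Ch25h+/+ Tau+ libraries, 3 were above every Tau- library of either genotype and replicate 1 was the lowest of all 16 libraries. Every Ch25h-/- Tau- library was above every Ch25h+/+ Tau- library.

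The mean of Abca1 was 46.6 ± 14.1 CPM (SD, n = 4) in Ch25h+/+ Tau+ and 28.9 ± 1.17 CPM in Ch25h+/+ Tau-, a log2 difference of 0.69 (SE 0.17, 1.62-fold, 95% interval 0.33 to 1.06). This had the smallest p of the members for that comparison (unadjusted p 0.000791, edgeR) and missed the threshold after Benjamini-Hochberg adjustment, at 0.0501. In Ch25h-/- the means were 36.0 ± 6.88 CPM with tau and 35.0 ± 3.07 CPM without (SD, n = 4), a difference of 0.04 (interval -0.33 to 0.40). The interaction was -0.65 (SE 0.24, unadjusted p 0.0152, adjusted p 0.862), so the tau differences of the 2 genotypes were not shown to differ. Averaged over genotypes, the tau difference was 0.37 (adjusted p 0.235).

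Ch25h loss went with opposite signs in the 2 tau states for Abca1, with neither past the threshold: -0.38 in Tau+ (adjusted p 0.192) and 0.28 in Tau- (adjusted p 0.371, edgeR). Without Ch25h+/+ Tau+ replicate 1, the tau difference in Ch25h+/+ was 0.89 (adjusted p 0.000394), Ch25h loss in Tau+ was -0.57 (adjusted p 0.0212), and the mean tau difference was 0.46 (adjusted p 0.00770), all past the threshold. Without Ch25h-/- Tau+ replicate 4, the tau difference in Ch25h+/+ was 0.70 (adjusted p 0.0319) and that in Ch25h-/- was -0.11. Those were the only 2 of 16 leave-one-out fits in which the tau difference in Ch25h+/+ passed. Over all 16 it ran from 0.58 to 0.89 (highest adjusted p 0.216), Ch25h loss in Tau+ from -0.57 to -0.26 (highest 0.414) and the mean tau difference from 0.30 to 0.46 (highest 0.459). Ch25h loss in Tau- ran from 0.24 to 0.32 and passed in 0 of 16. With the covariate for library class, Ch25h loss was 0.063 in Tau-, where all 4 Ch25h-/- libraries are rRNA-rich, and -0.54 in Tau+. With the GC-corrected offsets it was 0.21 in Tau- and -0.44 in Tau+. In all libraries, the tau difference in Ch25h+/+ also passed with no filter on low counts (adjusted p 0.00124), DESeq2 (0.00533), limma-voom (0.83, adjusted p 0.000808) and the GC-corrected offsets (0.0393), a call in 4 of 7 settings, and missed with relative log expression size factors, with the covariate for library class (0.0598) and in a fit of only the 8 libraries compared (0.151).

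**Figure D3:**
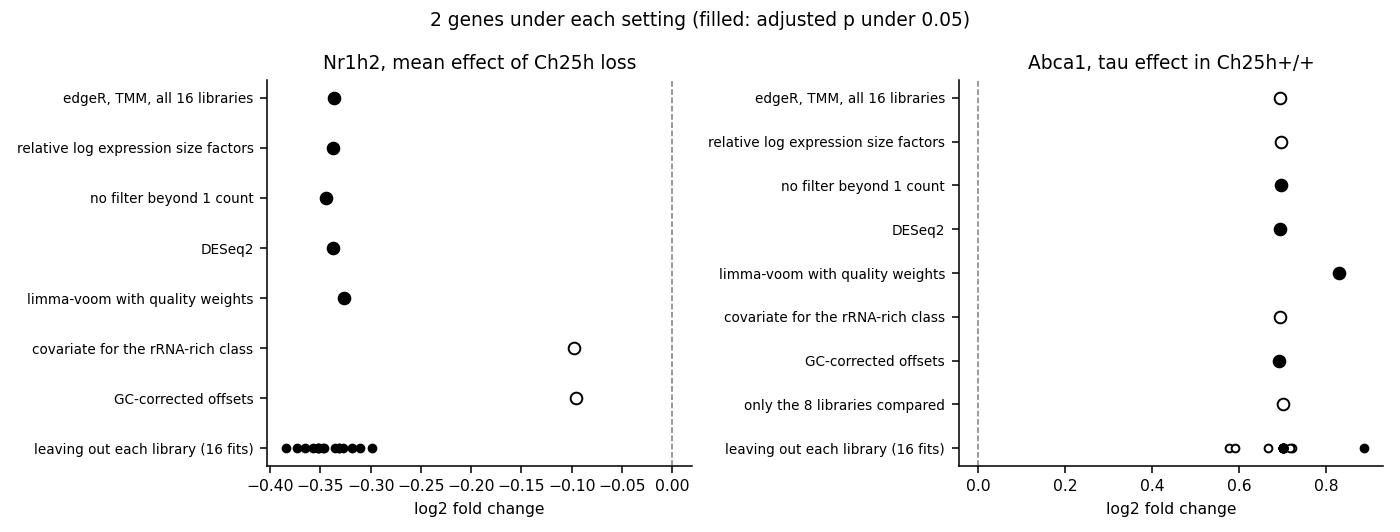
Log2 fold change (horizontal axis) of Nr1h2 with Ch25h loss and of Abca1 with tau in Ch25h+/+ under each way of processing (rows); filled points had an adjusted p under 0.05, and the last row holds the 16 fits that each left out 1 library. Nr1h2 moves from -0.34 to -0.10 with the covariate for library class or the GC-corrected offsets, and Abca1 reaches 0.89 in 1 of the 16 fits.

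Abca1 was set beside the summed astrocyte markers. The 6 markers (Aqp4, Gja1, Slc1a2, Slc1a3, Aldh1l1 and Gfap, all with counts in every library) summed to 2762, 4357, 4758 and 4984 CPM in Ch25h+/+ Tau+ replicates 1 to 4, and to 2963 to 3267 CPM in Ch25h+/+ Tau-. The Ch25h-/- groups summed to 3244 to 3989 CPM in Tau- and 3414 to 4140 CPM in Tau+. The library lowest in Abca1 was thus lowest in the astrocyte sum as well. Slc1a2, a glutamate transporter, made up most of the sum (1593, 2839, 3189 and 2705 CPM in Ch25h+/+ Tau+ replicates 1 to 4), and Aqp4, Gja1 and Slc1a3 were also lowest of the group in replicate 1. Aldh1l1 was nearly level there (74.5, 74.4, 79.4 and 79.6 CPM). The reactive marker Gfap was also lowest of the group in replicate 1 (473, 637, 627 and 1310 CPM), and so was the sum of the 8 microglia markers (455, 461, 478 and 572 CPM). Both were still above every Ch25h+/+ Tau- library (122 to 161 CPM of Gfap and sums of 298 to 322 CPM), whereas Abca1 and the astrocyte sum of replicate 1 were below them. Replicate 1 was also lowest of its group in the sums of neuron (5808 CPM), oligodendrocyte (2396 CPM) and endothelial markers (180 CPM). The same held for oligodendrocyte precursor (67.8 CPM) and cortex markers (786 CPM), but not for choroid plexus, blood or hippocampus markers. Being lowest was thus not particular to the astrocyte sum. The part of these cell types in the Abca1 values was not tested. In bulk tissue a change in the number of cells of a type and a change in RNA per cell cannot be told apart.

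**Figure D4:**
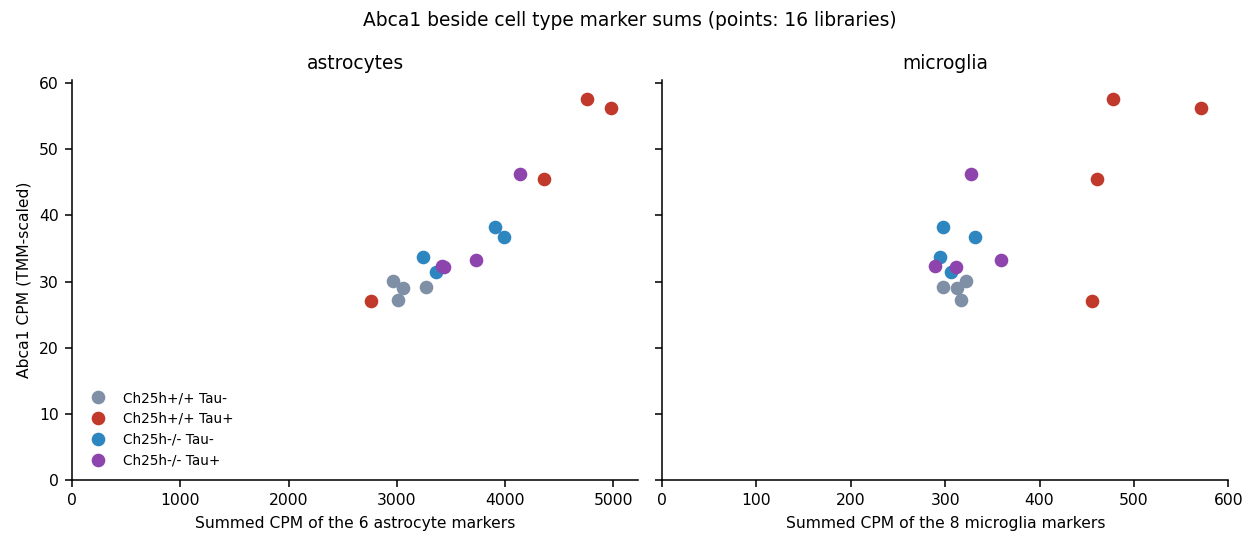
Abca1 in CPM (vertical axis) against the summed CPM of 6 astrocyte markers (left) and 8 microglia markers (right) in the 16 libraries, coloured by group. The Ch25h+/+ Tau+ library at 27.1 CPM of Abca1 has the lowest astrocyte sum (2762) and a microglia sum of 455, above all 12 libraries of the other groups.

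Among 14086 genes compared by Pearson correlation of log2 CPM over the 16 libraries, Epb41l2, a cytoskeletal linker of the protein 4.1 family, was most like Abca1 (r = 0.93, Spearman's rho = 0.94). Next came Itpripl2 (r = 0.89, rho = 0.78) and Fyb, an adaptor of blood and immune cells (r = 0.89, rho = 0.83). Epb41l2 had 85.2 CPM in Ch25h+/+ Tau+ replicate 1, its lowest value, and 108 to 120 CPM in the other 3 libraries of that group. For Abcg1 the nearest genes were Syt11 (r = 0.91, rho = 0.69), Hs1bp3 (r = 0.89, rho = 0.78) and Rab11fip5 (r = 0.88, rho = 0.89), and for Nr1h3 they were Ptgs1 (r = 0.80, rho = 0.79), Rrp15 (r = 0.80, rho = 0.74) and Gm11703 (r = 0.75, rho = 0.74). These are descriptions over libraries that share depth, group and library class.

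Abcg1 encodes the transporter that adds cholesterol to particles that already carry lipid (chromosome 17, 31057675 to 31117988, plus strand). It was measured at 79.8, 85.7, 81.0 and 74.3 CPM in Ch25h+/+ Tau-, and at 75.4, 88.2, 80.8 and 88.2 CPM in Ch25h+/+ Tau+. The Ch25h-/- libraries had 58.7, 75.6, 68.1 and 81.6 CPM in Tau-, and 80.2, 80.9, 71.7 and 71.2 CPM in Tau+. The groups overlapped in every comparison. Unlike the Abca1 estimate, that of Abcg1 for tau in Ch25h+/+ was near 0 (0.05, interval -0.14 to 0.24, adjusted p 0.964, edgeR), although the difference between the genes was not tested.

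With Ch25h loss, Abcg1 differed by -0.13 in Tau+ (adjusted p 0.403), by -0.17 in Tau- (adjusted p 0.283) and by -0.15 on average (SE 0.064, adjusted p 0.100, edgeR). Without Ch25h-/- Tau- replicate 4 the average was -0.20 and passed (adjusted p 0.0365). With the covariate for library class the average was -0.061 (adjusted p 0.9995) and with the GC-corrected offsets -0.074 (adjusted p 0.541). The lowest Abcg1 value, 58.7 CPM, belonged to an rRNA-rich library.

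Abcg4, the closest relative of Abcg1 and best known from neurons, exports sterols as well (chromosome 9, 44273188 to 44288615, minus strand). Its Ch25h+/+ Tau- libraries had 92.4, 81.9, 83.8 and 82.9 CPM and its Ch25h+/+ Tau+ libraries 71.8, 81.4, 81.3 and 76.4 CPM. All 4 libraries with tau were below the 4 without, though the nearest were 81.4 and 81.9 CPM. The log2 difference was -0.13 (SE 0.069, interval -0.28 to 0.01, adjusted p 0.605, edgeR), opposite in sign to that of Abca1. In Ch25h-/- the libraries spanned 78.7 to 87.5 CPM in Tau- and 76.5 to 88.6 CPM in Tau+, and so overlapped.

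Abca7 encodes a relative of Abca1 that handles phospholipid and is linked to phagocytosis and to the genetics of Alzheimer's disease (chromosome 10, 79996494 to 80015572, plus strand). It spanned 39.4 to 48.6 CPM in Ch25h+/+ Tau-, 37.4 to 43.7 CPM in Ch25h+/+ Tau+, 32.6 to 50.1 CPM in Ch25h-/- Tau- and 34.1 to 50.1 CPM in Ch25h-/- Tau+. All groups overlapped. Its tau difference in Ch25h+/+ was -0.15 (SE 0.13, interval -0.41 to 0.12, adjusted p 0.863, edgeR).

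Mylip, also called Idol, encodes a ubiquitin ligase that marks membrane receptors for breakdown (chromosome 13, 45389742 to 45412022, plus strand). It had 16.7, 14.8, 13.8 and 12.4 CPM in Ch25h+/+ Tau-, and 17.8, 18.5, 16.02 and 17.2 CPM in Ch25h+/+ Tau+. In Ch25h-/- it spanned 14.3 to 18.5 CPM in Tau- and 12.04 to 17.7 CPM in Tau+. The Ch25h+/+ groups overlapped only in the range of 16.02 to 16.7 CPM. The difference with tau there was 0.27 (SE 0.12, unadjusted p 0.0408, adjusted p 0.492), and the interaction was -0.31 (interval -0.68 to 0.05, adjusted p 1, edgeR).

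Smpdl3a encodes a secreted phosphodiesterase related to acid sphingomyelinase, known as an LXR target in macrophages (chromosome 10, 57794335 to 57811830, plus strand). It spanned 17.6 to 24.2 CPM in Ch25h+/+ Tau-, 20.9 to 24.3 CPM in Ch25h+/+ Tau+, 18.6 to 25.3 CPM in Ch25h-/- Tau- and 20.1 to 25.9 CPM in Ch25h-/- Tau+. The groups overlapped throughout, and the tau difference in Ch25h+/+ was 0.12 (interval -0.13 to 0.36, adjusted p 0.894, edgeR).

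Arl4c encodes a small GTPase that has been tied to cholesterol transport downstream of LXR (chromosome 1, 88673125 to 88702221, minus strand). It spanned 79.2 to 90.1 CPM in Ch25h+/+ Tau-, 85.3 to 93.3 CPM in Ch25h+/+ Tau+, 68.2 to 87.5 CPM in Ch25h-/- Tau- and 72.8 to 86.1 CPM in Ch25h-/- Tau+. Its tau difference in Ch25h+/+ was 0.07 (interval -0.10 to 0.23, adjusted p 0.933, edgeR). The average difference with Ch25h loss was -0.11 (SE 0.056, adjusted p 0.152), or -0.016 with the covariate for library class (adjusted p 0.9995) and -0.063 with the GC-corrected offsets (adjusted p 0.520).

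Other genes of the pathway were read from lists of partners, targets and acceptors. Apolipoprotein E (Apoe), the main lipid carrier of the brain and an LXR target, had 1391 to 1688 CPM in Ch25h+/+ Tau- and 2022 to 3072 CPM in Ch25h+/+ Tau+. In Ch25h-/- it had 1208 to 1500 CPM in Tau- and 1249 to 1476 CPM in Tau+. Every Ch25h+/+ Tau+ library was above every other library of the 16, replicate 1, the lowest in Abca1, included (2621 CPM). Apoe rose with tau in Ch25h+/+ by 0.64 (SE 0.12, adjusted p 0.00561), and its tau difference in Ch25h-/- was 0.07 (adjusted p 1, edgeR). It fell with Ch25h loss by 0.84 in Tau+ (adjusted p 0.00112) and by 0.56 on average (adjusted p 0.00128), and the difference in Tau- was -0.27 (adjusted p 0.203).

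The interaction of Apoe was -0.57 (unadjusted p 0.00314, adjusted p 0.452), and the mean tau difference was 0.36 (adjusted p 0.0520, edgeR). That mean passed with no filter on low counts (adjusted p 0.00945), DESeq2 (0.00400) and limma-voom (0.0343), and in 3 of 16 leave-one-out fits. It missed with relative log expression size factors (0.0597) and the GC-corrected offsets (0.0552). With the GC-corrected offsets the Apoe difference with Ch25h loss was -0.63 in Tau+ (adjusted p 0.00905) and -0.33 on average (adjusted p 0.0299), both still past the threshold. With the covariate for library class the difference in Tau+ was -0.75 and the average was -0.44. Neither passed in that fit, which leaves 1 library to separate class from genotype and so cannot decide these calls. The Apoe difference in Tau- was -0.038 with the GC-corrected offsets (adjusted p 0.936) and -0.14 with the covariate (adjusted p 1).

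Srebf1, the regulator of fatty acid synthesis whose transcript LXRs raise, spanned 81.4 to 99.9 CPM in Ch25h+/+ Tau-, 105 to 139 CPM in Ch25h+/+ Tau+, 67.1 to 78.9 CPM in Ch25h-/- Tau- and 68.7 to 86.6 CPM in Ch25h-/- Tau+. Like Apoe, it was higher in all 4 Ch25h+/+ Tau+ libraries than in the other 12. It fell with Ch25h loss in Tau+ by 0.57 (SE 0.099, adjusted p 0.00562) and on average by 0.41 (adjusted p 0.00238), while the difference in Tau- was -0.25 (adjusted p 0.157, edgeR). Its tau difference was 0.39 in Ch25h+/+ (adjusted p 0.0547), 0.08 in Ch25h-/- (adjusted p 1) and 0.24 on average (adjusted p 0.154), and its interaction was -0.31 (adjusted p 1). The tau difference in Ch25h+/+ passed in 4 of 16 fits that each left out 1 library, and also with no filter on low counts (adjusted p 0.0185), DESeq2 (0.0146) and limma-voom (0.0217). The GC-corrected offsets ended the calls of Srebf1 for Ch25h loss (-0.37 in Tau+, adjusted p 0.102, and -0.20 on average, adjusted p 0.118). With the covariate for library class these differences were -0.43 and -0.25 and did not pass either. That fit leaves 1 library to separate class from genotype and so cannot decide these calls. The Srebf1 difference in Tau- was -0.036 with the offsets (adjusted p 0.934) and -0.072 with the covariate (adjusted p 1).

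Of the 8 microglia markers, 4 rose with tau in Ch25h+/+ (1.56% of all genes passed in either direction) and 5 fell with Ch25h loss in Tau+ (3.55% of all genes). On average over tau states 3 fell with Ch25h loss and 1, P2ry12, rose (0.35, adjusted p 0.0137, edgeR), beside 20.3% of all genes. Tmem119 fell with Ch25h loss in Tau+ (-0.39, adjusted p 0.0278), and its tau difference in Ch25h+/+ was 0.02 (adjusted p 0.991). The sum of the 8 was 455 to 572 CPM in Ch25h+/+ Tau+ against 289 to 359 CPM in the 2 Ch25h-/- groups. All 8 had counts in every library. Their calls were not followed under the GC-corrected offsets or the covariate for library class. With the offsets, the genes called over all genes went from 629 to 207 for Ch25h loss in Tau+ and from 3603 to 658 on average. The covariate leaves 1 library to separate class from genotype and so cannot decide the calls for Ch25h loss. The part of microglia in the Apoe and Srebf1 values was not tested.

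As a list, the other LXR targets (13 of 14 tested) had 1 member past the threshold for tau in Ch25h+/+, Apoe (1.56% of all genes passed), with a median of 0.13 against -0.01 for all genes. For Ch25h loss in Tau+, 2 of 13 passed, Apoe and Srebf1, both lower (3.55% of all genes passed), with a median of -0.08. None of the 13 passed in the other comparisons, except the same 2 in the mean effect of Ch25h loss, where 20.3% of all genes passed. Fasn, which shares the letters of the Abca1 match, and the desaturase gene Scd1 were among those that did not pass.

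Of the acceptors of effluxed lipid and their remodelling, 3 of 4 genes were tested. Clusterin (Clu), a lipid-carrying chaperone also known as apolipoprotein J, rose with tau in Ch25h+/+ by 0.50 (adjusted p 0.00488) and on average by 0.32 (adjusted p 0.0181), and fell with Ch25h loss in Tau+ by 0.44 (adjusted p 0.0161) and on average by 0.26 (adjusted p 0.0116, edgeR). Its Ch25h+/+ Tau+ libraries spanned 989 to 1318 CPM and its Ch25h+/+ Tau- libraries 718 to 853 CPM, with no overlap. Lcat, which esterifies the cholesterol of lipoprotein particles, fell with Ch25h loss on average by 0.30 (adjusted p 0.0246). So 2 of 3 rose with tau in Ch25h+/+ (Apoe and Clu), where 1.56% of all genes passed in either direction, and 3 of 3 fell with Ch25h loss on average, where 20.3% of all genes passed in either direction. The GC-corrected offsets ended the calls of Clu and Lcat for Ch25h loss, at -0.35 for Clu in Tau+ (adjusted p 0.0785), -0.16 for its average (0.162) and -0.17 for the average of Lcat (0.291). The covariate for library class gave larger differences, at -0.50 for Clu in Tau+ and averages of -0.33 for Clu and -0.50 for Lcat. None of these passed in that fit, which leaves 1 library to separate class from genotype and so cannot decide these calls. In a fit of only the 8 libraries compared, the Clu difference in Tau+ was -0.44, as before, and missed (adjusted p 0.0936). When 1 library was left out, the Clu fall in Tau+ passed in 13 of 16 fits, its average tau rise in 12 and the Lcat fall in 14.

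Among the 12 partners and coregulators of LXR, 0 passed in the tau comparisons, beside 1.56% of all genes in Ch25h+/+, 0.0395% in Ch25h-/- and 0.857% on average. Rxrb, a second retinoid X receptor, fell with Ch25h loss in Tau+ by 0.37 (adjusted p 0.0459) and in Tau- by 0.42 (adjusted p 0.0497), and on average by 0.40 (adjusted p 0.00252, edgeR), in the same direction as Nr1h2. The coactivator Ncoa6 rose in Tau+ by 0.34 (adjusted p 0.0497) and on average by 0.32 (adjusted p 0.00509). On average 4 of 12 rose (Ncoa6, Tbl1xr1, Ncor1 and Ncoa1) and 2 fell (Rxrb and Gps2), where 20.3% of all genes passed. The averages of Tbl1xr1, Ncor1, Ncoa1 and Gps2 passed in 11, 9, 4 and 10 of the 16 leave-one-out fits. With the covariate for library class the averages were 0.02 for Rxrb, 0.06 for Ncoa6, 0.16 for Ncor1 and 0.083 for Ncoa1, and none of these passed. The Tau+ differences of Rxrb and Ncoa6 were then -0.03 and 0.12, and the Tau- difference of Rxrb was 0.07. The Tau+ calls of Rxrb and Ncoa6 held in 7 and 3 of 16 fits that each left out 1 library, and the Tau- call of Rxrb in 2. The GC-corrected offsets ended these calls, except the average of Ncoa6 (0.27, adjusted p 0.0235). Rxrb was then at -0.16 in Tau+ (adjusted p 0.276), -0.18 in Tau- (0.381) and -0.17 on average (0.0584), and Ncoa6 in Tau+ at 0.29 (0.111). The averages of Ncor1 and Ncoa1 were then 0.23 (adjusted p 0.105; 0.28 before) and 0.21 (0.136; 0.25 before). Those of Tbl1xr1 and Gps2 were smaller, at 0.022 (0.807; 0.19 before) and -0.11 (0.331; -0.24 before). In a fit of only the 8 libraries compared, the Tau+ differences of Rxrb (-0.37, adjusted p 0.152) and Ncoa6 (0.34, adjusted p 0.151) kept their size and missed the threshold, and the Tau- call of Rxrb held (-0.42, 0.0110).

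Of the other A- and G-class ABC transporters, 9 of 11 were tested and 0 passed in the tau comparisons, with the same backgrounds of 1.56%, 0.0395% and 0.857% of all genes. Abca5, a lysosomal and endosomal transporter, rose with Ch25h loss in Tau+ by 0.42 (adjusted p 0.0459, kept in 4 of 16 fits that each left out 1 library) and on average by 0.38 (adjusted p 0.00535), and Abca8b rose on average by 0.33 (adjusted p 0.0171, edgeR). The 2 of 9 that passed on average are near the 20.3% of all genes. Neither average passed with the GC-corrected offsets (0.14 and 0.18), nor did Abca5 in Tau+ (0.19, adjusted p 0.304), which also missed in the fit of 8 libraries (0.43, adjusted p 0.139). With the covariate for library class the averages of Abca5 and Abca8b were 0.094 and 0.19 (adjusted p 0.9995 for both) and Abca5 in Tau+ was 0.18 (0.976), none past the threshold. Of the 5 tested enzymes that make or clear oxysterols, only the deleted gene, Ch25h itself, passed in any comparison, lower with its loss in Tau+ (3.55% of all genes passed), in Tau- (1.03%) and on average (20.3%). The hydroxylases Cyp46a1, Cyp27a1 and Cyp7b1 did not pass.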

How the data were processed

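Per the labels' protocols, total RNA came from a spin-column kit and was turned into libraries by a SMARTer mRNA protocol. The authors deposited 1 table of raw counts per gene and library, checked here to hold whole numbers only. STAR 2.7 and GRCm38/mm10 are named per the submitters' processing notes. The counting program, annotation and use of strand are not given in the sources used here, so reads of overlapping genes could not be assigned further.

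The filterByExpr filter kept at least 99.9% of each library's counts. edgeR 4.0.16 (R 4.3.3; TMM, quasi-likelihood F test, two-sided) was fitted to all 16 libraries, each group having its own mean. Benjamini-Hochberg adjustment ran over 17736 genes, with a threshold of 0.05. The SE is the size of the log2 fold change divided by the square root of F, and intervals are 95% intervals. CPM used TMM-scaled library sizes. The fit was tested on simulated data. These were drawn from the fit's own spread, with no library class and with differences larger than any of the members in that fit. They therefore do not show how well differences of the members' size are recovered, or what the class does. No 2 libraries held identical columns. Reads carry no molecular identifiers, so repeat reads of the same molecule could not be told from reads of separate molecules.

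Replicate numbers follow record order and pair nothing. The class called rRNA-rich had over 1000 CPM of the ribosomal entry. Alternatives were DESeq2 1.42.0, size factors by relative log expression, a filter of only 1 count, limma-voom (limma 3.58.1) with quality weights, a class covariate, GC offsets (loess, span 0.5, with GC known for 99.2% of genes tested), only the 8 libraries compared, and leaving out each library. Gene positions, lengths and GC content came from GENCODE M21.

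The members, gene lists and alternatives were chosen with earlier results of these data known. Named genes were the 10 members, at most 5 genes past the threshold per list and comparison, Apoe and Srebf1, the 3 genes most like Nr1h3, Abca1 and Abcg1 (mean log2 CPM of at least 1), and Ch25h and Prnp. Other named genes were chosen after their values were seen. Apoc2, Abcg5, Abcg8, Hsd3b7 and Apoa1 had too few counts to be tested. The list of receptors that Mylip acts on is not reported here.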

Additional observations from a re-analysis of the deposited data

Results flagged for a closer look

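In 4 of the 40 combinations of member and group, 1 library lay far from the other 3, by a gap over the range above Dixon's 95% critical value for 4 samples. Chance flags about 1 in 20 such groups, or 2 of 40. Abca1 was at 46.3 CPM in Ch25h-/- Tau+ replicate 4, above the 3 others at 32.1 to 33.3 CPM, and the same library had the highest Smpdl3a of its group, at 25.9 CPM against 20.1 to 21.0 CPM. Abcg4 was at 87.5 CPM in Ch25h-/- Tau- replicate 1, against 78.7 to 79.98 CPM. Rxra was at 44.8 CPM in Ch25h+/+ Tau- replicate 2, below the 3 others at 48.0 to 48.2 CPM.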

How the results depend on the processing

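Of 1580 member values recomputed under the alternatives, 1461 kept their sign and their side of the threshold, 32 gained a call, 2 lost one, and 85 changed sign with no call, all of them among differences of at most 0.17 (log2). The count of members past the threshold was 1 in place of 0 for tau in Ch25h+/+ with no filter, DESeq2, limma-voom and the GC-corrected offsets. For Ch25h loss in Tau+ it was 1 with no filter and DESeq2 and 2 with limma-voom. For Ch25h loss in Tau- it was 1 with no filter, DESeq2, limma-voom and only the 8 libraries compared. For the mean tau difference it was 1 with no filter and limma-voom. For the mean effect of Ch25h loss it was 2 with DESeq2, 3 with limma-voom, and 0 with the class covariate and the GC-corrected offsets. The call lost with these was Nr1h2, and the cause was not tested. Leaving out 1 library gave 0 to 1 for tau in Ch25h+/+, Ch25h loss in Tau+, Ch25h loss in Tau- and the mean tau difference, and 1 to 3 for the mean effect of Ch25h loss. The count stayed at 0 in every fit for tau in Ch25h-/- and for the interaction. Sign changes among printed values were Rxra with the GC-corrected offsets (0.040 in Tau- and 0.0071 on average) and, with the class covariate, Rxrb (0.066 in Tau- and 0.019 on average), Tbl1xr1 (-0.054) and Gps2 (0.012), each on average over tau states. The Abca1 tau difference in Ch25h-/- ran from -0.11 to 0.083 when 1 library was left out. Genes past the threshold over all genes tested also moved: for the mean effect of Ch25h loss from 3603 to 658 with the GC-corrected offsets and to 0 with the class covariate, and for Ch25h loss in Tau+ from 629 to 10 with the class covariate. At 42 to 86 counts per library, Nr1h3 had the least precise estimates of the members. No paired analysis was possible because the labels carry no replicate numbers shared between groups.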
